A study of Mus musculus with 6 samples.

Results

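The receptors that share the common gamma chain were examined in bone marrow (BM) RNA of a mouse model of T-cell leukemia. They were found by gene name in the deposited expression table and comprised 8 genes of 54532: Il2ra, Il2rb, Il2rg, Il4ra, Il7r, Il9r, Il15ra and Il21r. All 8 passed the filter on low values. The libraries came from C57BL/6 BM taken at day 100 after transplantation, 3 labelled Phf6 WT and 3 labelled Phf6 KO. Both groups carried JAK3 M511I, an activating form of the kinase that binds the common gamma chain, delivered with the vector MSCV-JAK3 M511I-IRES-GFP into lineage-negative donor cells and transplanted into lethally irradiated recipients. According to the study's methods, donors were Phf6 fl/y (WT) or Vav1-Cre;Phf6 fl/y (KO), donors and recipients were young adult males, and Vav1-Cre removes the floxed exons in hematopoietic cells. The genotype labels read Phf6, Phf7 and Phf8 in turn within each group and were read as Phf6, as in the design text. A sort of leukemic cells before RNA extraction is not stated in the labels, so host and other donor-derived cells may have contributed RNA. Nothing in the labels says that replicates are separate mice, so p-values measure the spread between these samples.

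The common gamma chain, encoded by Il2rg, is a subunit of the receptors for IL-2, IL-4, IL-7, IL-9, IL-15 and IL-21. It recruits JAK3, while the partner chain of each receptor binds JAK1, and the kinases together activate STAT5, STAT6 and STAT3. Il2rb serves both IL-2 and IL-15, whereas the alpha chains encoded by Il2ra (CD25) and Il15ra mainly raise affinity for their ligand. In the thymus Il7r (CD127) and Il2ra are known markers of successive immature stages, and Il2rb is characteristic of memory CD8 T cells and NK cells.

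Between 13015823 and 18235095 fragments per library (called reads here) were recovered from the table, which gives FPKM, fragments per kilobase of gene, scaled by library size. WT 2 stood apart from the other libraries, where genes under 1000 bases took 17.1% of all reads, compared with a range of 3.11% to 5.01% elsewhere, and results that rest on it are given with and without it. Phf6 was at 7.47, 3.67 and 8.02 FPKM in WT 1, WT 2 and WT 3 and at 6.73, 5.50 and 5.11 FPKM in KO 1, KO 2 and KO 3. Its difference was -0.07 on the log2 scale (95% interval -0.85 to 0.71, limma adjusted p = 0.893), so its RNA did not separate the labels and each direction given here rests on them. The deletion is of part of the gene, and the value per gene does not test it. The Y-linked genes Ddx3y (22.9 to 47.0 FPKM), Kdm5d (0.998 to 5.95 FPKM) and Uty (0.504 to 4.43 FPKM) were present in all 6 libraries and Xist was at most 0.083 FPKM. A further Y-linked gene, Eif2s3y, was at 31.0, 19.9 and 35.1 FPKM in WT but at 0.0258, 0.0611 and 0.164 FPKM in KO (limma adjusted p = 0.000271), a difference between the groups whose part in the receptor results was not tested. T-cell markers were present in both groups (9 of 9 tested, 0 higher and 1 lower, summed FPKM 870 to 1905 in WT and 883 to 969 in KO).

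The start regions of Il2ra and Il9r, which rose in KO, of Il4ra, which fell, and of Il7r, for its motif matches, are shown because the results below set these genes against each other. Windows of 300 bases (250 before to 50 after the RefSeq start, GRCm38.p6) were found for 7 of the 8 genes, with a pair of windows for Il15ra. They were searched on both strands for TTCNNNGAA (STAT5-type site), the same letters with 1 more base between them (STAT6-type site), TGTGGT (RUNX core), GTAAACA (FOXO site) and CCGGAAG (ETS core), and matches are in capitals. The windows are chr2:11642542-11642841 (plus strand) for Il2ra, chr11:32200230-32200529 (minus strand) for Il9r, chr7:125552021-125552320 (plus strand) for Il4ra and chr15:9529827-9530126 (minus strand) for Il7r.
Il2ra: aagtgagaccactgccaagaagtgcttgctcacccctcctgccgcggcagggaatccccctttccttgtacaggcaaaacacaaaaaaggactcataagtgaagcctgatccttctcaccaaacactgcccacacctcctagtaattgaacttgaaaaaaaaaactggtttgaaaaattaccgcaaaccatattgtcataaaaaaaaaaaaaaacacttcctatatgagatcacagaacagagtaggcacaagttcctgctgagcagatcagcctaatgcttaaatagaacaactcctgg
Il9r: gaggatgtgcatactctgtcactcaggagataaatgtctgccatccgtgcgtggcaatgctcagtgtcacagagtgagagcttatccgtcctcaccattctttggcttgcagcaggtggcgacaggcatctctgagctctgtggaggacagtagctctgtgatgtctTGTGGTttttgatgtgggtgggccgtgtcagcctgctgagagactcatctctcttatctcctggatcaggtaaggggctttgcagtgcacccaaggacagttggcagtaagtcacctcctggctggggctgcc
Il4ra: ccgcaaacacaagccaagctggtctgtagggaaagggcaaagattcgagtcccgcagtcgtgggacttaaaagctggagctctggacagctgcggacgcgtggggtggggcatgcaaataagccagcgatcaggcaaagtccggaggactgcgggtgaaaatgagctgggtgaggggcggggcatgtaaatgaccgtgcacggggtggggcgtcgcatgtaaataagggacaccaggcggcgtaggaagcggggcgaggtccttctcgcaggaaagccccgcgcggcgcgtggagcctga
Il7r: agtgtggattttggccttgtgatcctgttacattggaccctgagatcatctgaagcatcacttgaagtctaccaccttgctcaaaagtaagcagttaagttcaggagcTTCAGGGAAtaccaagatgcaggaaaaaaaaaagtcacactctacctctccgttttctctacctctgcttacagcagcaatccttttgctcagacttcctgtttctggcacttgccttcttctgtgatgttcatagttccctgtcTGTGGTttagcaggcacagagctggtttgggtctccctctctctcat
In the Il7r window 1 STAT5-type match, TTCAGGGAA, began at position -142 from the start site, and a RUNX core match began at 4. The Il9r window held 1 RUNX core match at -83, and the windows of Il2ra and Il4ra held no match to these letters. Of the windows not shown, Il2rg held a RUNX core at -227 and an ETS core at -17, the upstream window of Il15ra an ETS core at -104, and Il21r a FOXO site at -38 that overlaps a RUNX core at -33. Over all 32851 windows of the same length, 8.30% held the STAT5-type site, 6.95% the STAT6-type site, 16.8% the RUNX core, 3.65% the FOXO site and 8.86% the ETS core. A match is a string of letters and no evidence of binding.

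To compare receptor RNA between WT and KO, all 13393 genes that passed the filter were fitted together by limma on log2(FPKM + 1), and differences are KO minus WT on that scale, which understates the change of low genes. Il2ra and Il9r rose and Il2rb, Il4ra, Il7r, Il21r and Il2rg fell, which makes 7 of 8 receptor genes past an adjusted p of 0.05. Over all genes tested the background was 26.4% past the threshold, 13.1% higher and 13.3% lower. The same shares are the background for each list counted below with all 6 libraries. The groups did not overlap for the same 7 genes, and 49.1% of all genes tested had groups that did not overlap. The median difference of the 8 genes was -1.73, against 0.09 over all genes tested. Because these are bulk samples, fewer cells of a type and less RNA per cell cannot be told apart.

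**Figure D1:**
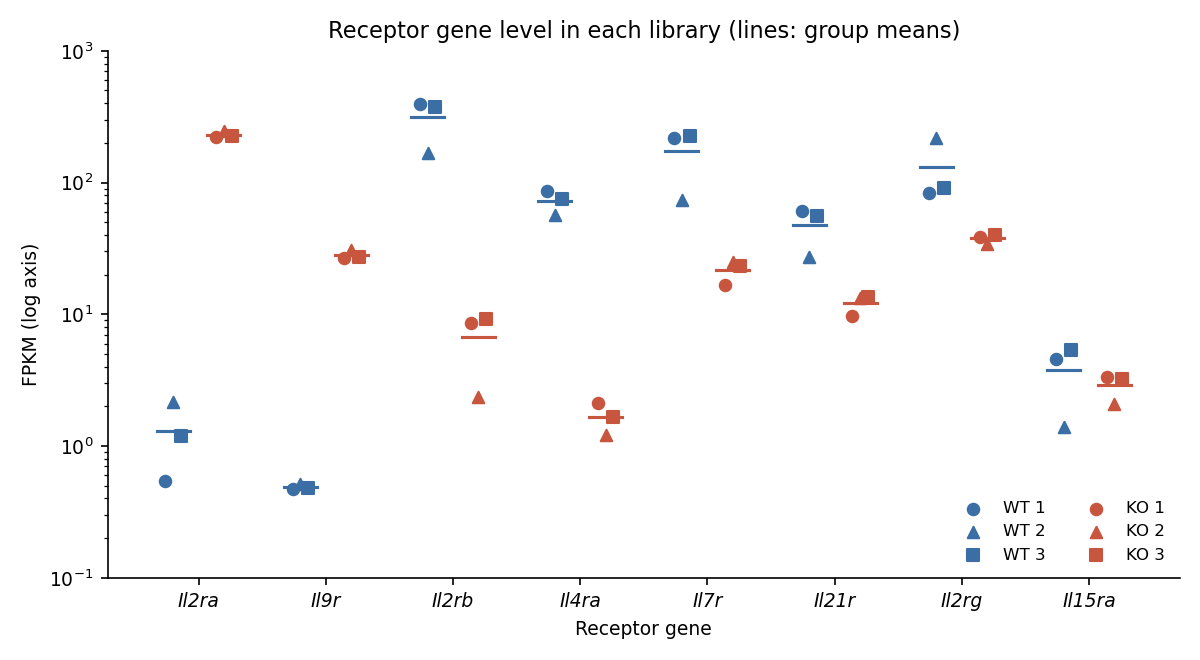
FPKM of the 8 receptor genes (log axis) in each library, WT in blue and KO in red, with lines at the group means. Il2ra and Il9r lay far above WT in all 3 KO libraries (Il2ra 219.8 to 245 against 0.545 to 2.16 FPKM), 5 genes lay below WT, and Il15ra overlapped.

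The chains of the IL-2 receptor moved in opposite directions. Il2ra (ENSMUSG00000026770, chr2:11642807-11693193, plus strand, GRCm38), the alpha chain CD25, was at 0.545, 2.16 and 1.19 FPKM in WT 1 to WT 3 and at 219.8, 245 and 224 FPKM in KO 1 to KO 3. It was low in WT (48, 145 and 105 reads) and uniformly high in KO (20618 to 23380 reads), with no overlap. The mean was 1.30 ± 0.813 FPKM (SD, n = 3) in WT and 229.7 ± 13.5 FPKM in KO, 177-fold higher, or 265-fold without WT 2. The limma difference was 6.71 (95% interval 5.97 to 7.45, adjusted p = 0.000233), rank 5 from the top among 13393 genes. Within the genes tested Il2ra went from percentile 12.2 of mean level in WT to 99.1 in KO.

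Il2rb (ENSMUSG00000068227, chr15:78479256-78495271, minus strand), the beta chain shared with the IL-15 receptor, was at 396, 167 and 372 FPKM in the WT libraries and at 8.53, 2.34 and 9.21 FPKM in the KO libraries. WT 2 and KO 2 were the lowest of their groups, and the groups stayed apart. It fell from 312 ± 126 to 6.69 ± 3.79 FPKM (SD, n = 3 each), 46.6-fold lower in KO and 57.4-fold lower without WT 2, with a limma difference of -5.41 (95% interval -6.74 to -4.07, adjusted p = 0.0012). Within a library, Il2rb stood 726.7, 77.4 and 314 times above Il2ra in WT 1, WT 2 and WT 3, whereas Il2ra stood 25.8, 105 and 24.3 times above Il2rb in KO 1, KO 2 and KO 3. The order of the alpha and beta chains was the same in all libraries of a group and opposite between the groups.

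Il2rg (ENSMUSG00000031304, chrX:101264378-101268255, minus strand), the common gamma chain itself, was at 83.5, 218 and 90.6 FPKM in WT and at 38.9, 34.4 and 39.7 FPKM in KO. WT 2 was 2.50 times the mean of the other WT libraries, whereas Il2rb, Il4ra, Il7r, Il15ra and Il21r had their lowest WT value there. The FPKM of all genes summed to 897352 in WT 2, against 329893 in WT 1 and 305933 in WT 3. The part of this total in the Il2rg value was not tested. The gene model of Il2rg, 2387 bases, is the shortest of the 8. It fell by 1.63 on the log2 scale (95% interval -2.62 to -0.63, limma adjusted p = 0.0299). Without WT 2 the fall was 2.31-fold in mean FPKM, against 3.47-fold with it. The call was lost in 6 of 18 alternatives, with adjusted p of 0.101, 0.12 and 0.101 when KO 1, KO 2 or KO 3 was left out.

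Il9r (ENSMUSG00000020279, chr11:32187541-32200279, minus strand), the private chain of the IL-9 receptor, rose from a low level. It was at 0.471, 0.516 and 0.483 FPKM in WT (36, 30 and 37 reads) and at 26.5, 30.5 and 27.2 FPKM in KO (2168 to 2446 reads). The spread within each group was small, and the highest WT library was far below the lowest KO library. The means were 0.490 ± 0.0231 and 28.1 ± 2.14 FPKM (SD, n = 3 each), 57.4-fold higher in KO, with a limma difference of 4.29 (95% interval 3.77 to 4.80, adjusted p = 0.000233). In WT, Il9r was 177 to 422 times below Il2rg, and in KO it was 1.13 to 1.47 times below it.

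Il4ra (ENSMUSG00000030748, chr7:125552120-125579474, plus strand), which pairs with the gamma chain for IL-4 and with Il13ra1 for IL-4 and IL-13, was at 86.0, 56.3 and 74.5 FPKM in WT and at 2.11, 1.22 and 1.66 FPKM in KO. All KO values were below all WT values. It fell 43.5-fold in mean FPKM, from 72.3 ± 14.98 to 1.66 ± 0.447 (SD, n = 3 each), with a limma difference of -4.78 (95% interval -5.42 to -4.13, adjusted p = 0.000259).

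Il7r (ENSMUSG00000003882, chr15:9505788-9530176, minus strand), the IL-7 receptor alpha chain CD127, which also pairs with Crlf2 for TSLP, was at 219, 73.8 and 227 FPKM in WT and at 16.8, 24.7 and 23.3 FPKM in KO. WT 2 was the low WT library at 3.02 times below the mean of the other pair, and it was still above every KO library. The fall was 8.02-fold in mean FPKM and 10.3-fold without WT 2, with a limma difference of -2.80 (95% interval -3.97 to -1.63, adjusted p = 0.00757).

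Il21r (ENSMUSG00000030745, chr7:125603429-125633570, plus strand), the private chain of the IL-21 receptor, was at 60.5, 27.0 and 56.1 FPKM in WT and at 9.66, 13.3 and 13.5 FPKM in KO. It fell 3.94-fold in mean FPKM, with a limma difference of -1.82 (95% interval -2.70 to -0.95, adjusted p = 0.0129). Leaving out KO 1, KO 2 or KO 3 took this call to adjusted p of 0.0625, 0.0528 and 0.0504.

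Il15ra (ENSMUSG00000023206, chr2:11705290-11734317, plus strand), the alpha chain that presents IL-15, was at 4.605, 1.40 and 5.35 FPKM in WT and at 3.36, 2.09 and 3.23 FPKM in KO. The groups overlapped, since WT 2 was below every KO library and the other WT libraries were above. The difference was -0.20 (95% interval -1.20 to 0.81, limma adjusted p = 0.774), so on this scale neither a 2-fold fall nor no change was excluded. Without WT 2 the difference was -0.63 and passed the threshold (adjusted p = 0.0453).

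**Figure D2:**
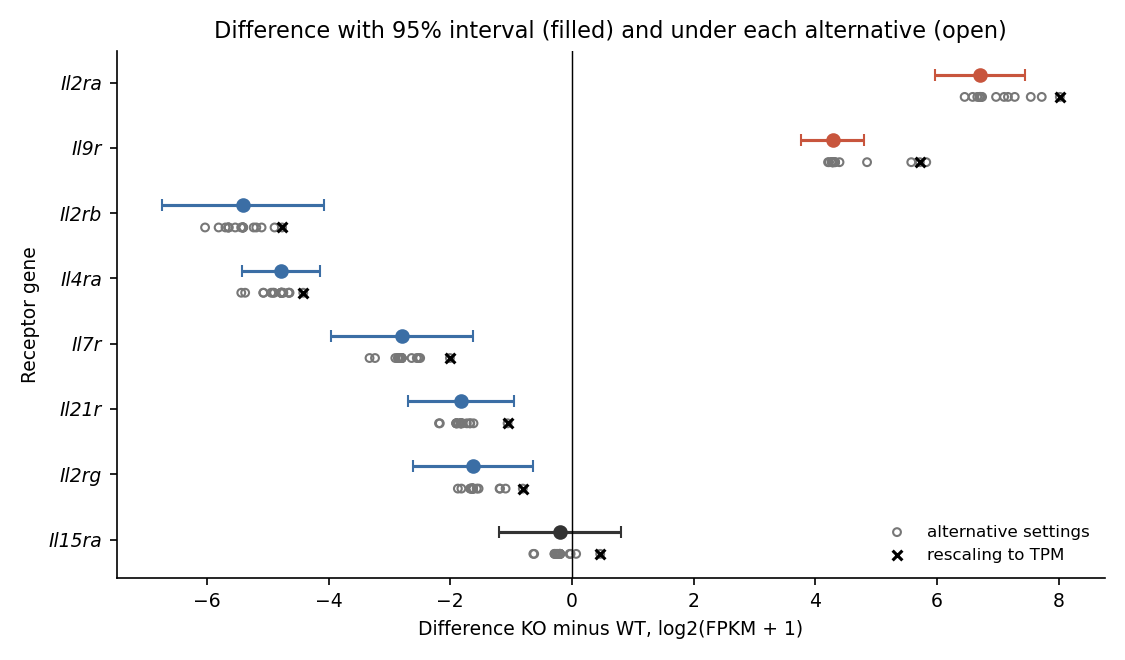
Difference KO minus WT on log2(FPKM + 1) for each receptor gene, with its 95% interval (filled points, red higher, blue lower, black not past the threshold) and its value under each alternative setting (open points, crosses for rescaling to TPM). Il2ra (6.71) and Il9r (4.29) stayed above 0 and Il2rb (-5.41) and Il4ra (-4.78) stayed below 0 throughout, while Il15ra lay on either side of 0.

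The make-up of the receptor RNA was compared within libraries, where the scaling of a library cancels in shares of a sum. FPKM is per length, which lets the genes be set side by side. A trend on gene length within a library does not cancel, however. Genes under 1000 bases took 17.1% of reads in WT 2, against 3.11% to 5.01% elsewhere. The part of gene length in the shares and ratios of WT 2 was not tested. The 8 genes summed to 546 to 849.8 FPKM in WT and to 326 to 354 FPKM in KO. Il2rb made up 40.7% ± 8.79 of this sum in WT and 1.99% ± 1.15 in KO, while Il2ra went from 0.201% ± 0.173 to 67.4% ± 1.86 and Il9r from 0.0694% ± 0.0218 to 8.25% ± 0.347 (SD, n = 3 each). Il7r made up 22.2% ± 7.59 in WT and 6.31% ± 1.02 in KO, and Il4ra 9.81% ± 0.704 and 0.492% ± 0.152. Shares of a sum depend on each other, so the rise of Il2ra lowers the shares of the rest in KO.

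**Figure D3:**
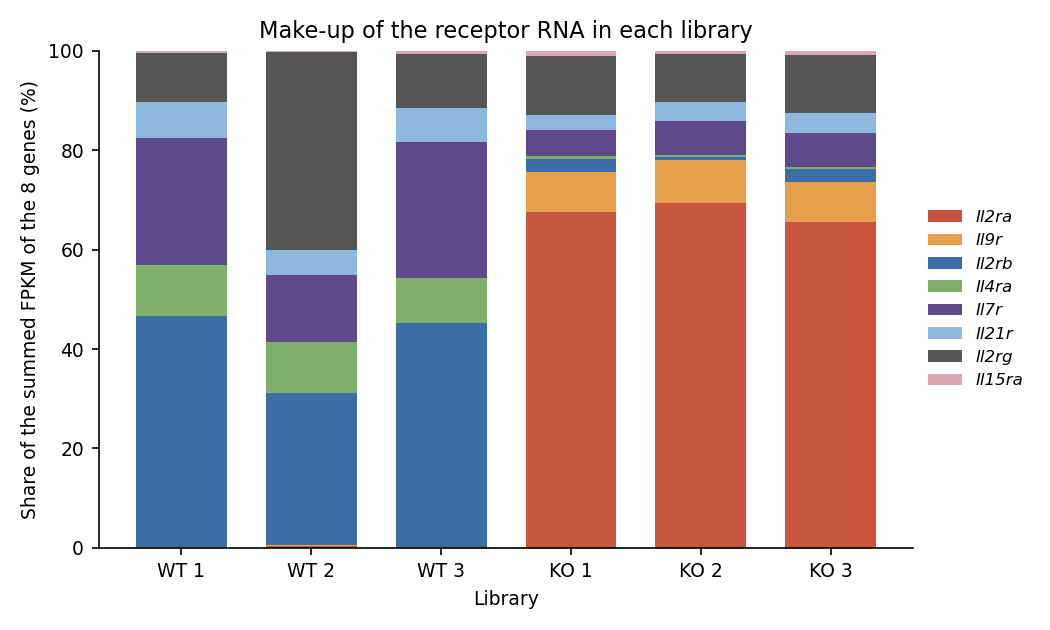
Share of the summed FPKM of the 8 receptor genes taken by each gene (stacked bars, percent) in each library. Il2ra filled 65.6% to 69.3% of the KO bars and at most 0.396% of the WT bars, and Il2rg filled 39.9% of WT 2 against 9.83% and 10.9% in WT 1 and WT 3.

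By mean FPKM the order in WT was Il2rb (312), Il7r (173), Il2rg (131), Il4ra (72.3), Il21r (47.9), Il15ra (3.79), Il2ra (1.30) and Il9r (0.490). Neighbours in this order overlapped in range except Il21r with Il15ra and Il2ra with Il9r. In KO the order was Il2ra (229.7), Il2rg (37.7), Il9r (28.1), Il7r (21.6), Il21r (12.2), Il2rb (6.69), Il15ra (2.89) and Il4ra (1.66). Here the ranges of neighbours stayed apart down to Il2rb, and Il2rb with Il15ra and Il15ra with Il4ra overlapped.

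Set against Il2rg in the same library, 4 genes kept their direction and their groups apart. The log2 ratio to Il2rg, taken on FPKM + 1, differed between KO and WT by 8.34 for Il2ra, 5.91 for Il9r, -3.78 for Il2rb and -3.15 for Il4ra. Each had p = 0.1 by a two-sided exact permutation test, the smallest that 3 against 3 libraries allow (Benjamini-Hochberg adjusted p = 0.14 over 7 ratios). The 1 added to each value keeps library scaling from cancelling fully and understates the change of low genes. With 0.1 added, the differences were 9.19 for Il2ra and 7.23 for Il9r. The ratios of Il7r (-1.17, exact permutation p = 0.4, adjusted p = 0.467) and Il21r (-0.20, exact permutation p = 1, adjusted p = 1) overlapped between the groups. In both cases WT 2, where Il2rg was high, lay below all KO libraries. Without WT 2 the differences were -2.14 for Il7r and -0.996 for Il21r. Il15ra had a higher ratio to Il2rg in all 3 KO libraries, by 1.43 (0.555 without WT 2), but overlapped when set against the Cd3 genes (-0.18) or Ptprc (-0.57). Against the mean of Cd3d, Cd3e and Cd3g, 7 of the 8 genes had groups that did not overlap, all but Il15ra, and Il2rg itself differed by -1.62.

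None of the 8 ligand genes (Il2, Il4, Il7, Il9, Il15, Il21, Il13 and Tslp) passed the filter on low values, so none was tested. Il15, the cytokine that Il15ra presents, was at 3.32, 6.21 and 0.742 FPKM in WT (116, 165 and 26 reads) and had 0 reads in each KO library. Against a floor of 3 reads per KO library it was at least 43.2-fold lower in KO, or at least 25.6-fold without WT 2. Il4 reached 10.95 FPKM in WT 2 against 0.263 to 0.744 in the other 5 libraries, and Il13 5.72 FPKM in WT 2 against 0 to 0.356. The mast cell and basophil markers moved with these values in WT 2 (summed FPKM 4003 there, 42.6 and 24.3 in WT 1 and WT 3, 0.29 to 0.925 in KO), and their part in them was not tested. Il9 had 0 reads in all 6 libraries, which allows up to 0.476 FPKM, so the IL-9 receptor chain rose where RNA of its ligand was not detectable at this depth. Il2 had at most 6 reads, Il7 at most 7, Il21 at most 1 and Tslp at most 6 in any library.

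Of the chains that pair with Il4ra or Il7r outside the gamma chain family, 2 of 3 were tested and both fell. Il13ra1 was at 12.5, 2.54 and 2.31 FPKM in WT and at 0.0434, 0.0856 and 0.0335 FPKM in KO (difference -2.36, limma adjusted p = 0.0213). WT 1 was the high library, and every KO library was below every WT library. Crlf2, the TSLP receptor chain, was at 45.7, 132 and 34.4 FPKM in WT and at 13.6, 9.18 and 12.4 FPKM in KO (difference -2.26, limma adjusted p = 0.0201). Il13ra2, a decoy receptor for IL-13, had no reads. Both calls were lost when any KO library was left out (adjusted p of 0.078 to 0.0805 for Il13ra1 and 0.0662 to 0.0877 for Crlf2).

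Of 6 genes of the kinases and STATs downstream of the receptors, 1 rose and 2 fell, with a median difference of -0.61 against 0.09 over all genes tested. Stat5a, a main effector of IL-2 and IL-7 signals, was at 7.96, 5.40 and 8.58 FPKM in WT and at 27.9, 22.9 and 31.1 FPKM in KO, a rise of 1.78 on the log2 scale (95% interval 1.15 to 2.41, limma adjusted p = 0.00425). Its groups did not overlap. Stat6, which transmits IL-4 signals, was at 52.0, 31.3 and 43.5 FPKM in WT and at 19.4, 20.8 and 19.2 FPKM in KO, a difference of the same sign as that of Il4ra (-1.03, limma adjusted p = 0.0302). Jak3, the kinase of the gamma chain, was at 47.9, 30.8 and 53.8 FPKM in WT and at 18.2, 11.4 and 22.1 FPKM in KO (-1.32, limma adjusted p = 0.0337). Whether reads of the introduced JAK3 were counted under Jak3 is not stated in the sources used here. The calls of Stat6 and Jak3 were lost on rescaling to TPM (limma adjusted p of 0.781 and 0.551) and when any library but WT 2 was left out (0.0764 to 0.121 for Stat6 and 0.0646 to 0.132 for Jak3).

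The remaining 3 did not pass the threshold. Stat5b was at 27.7, 10.8 and 27.3 FPKM in WT and 58.2, 42.3 and 46.1 FPKM in KO (1.22, limma adjusted p = 0.0712). Its groups did not overlap, with KO above WT. Jak1, the kinase of the partner chains, differed by -0.99 (95% interval -2.13 to 0.15, limma adjusted p = 0.183) and Stat3 by -0.24 (95% interval -1.32 to 0.85, limma adjusted p = 0.746). Leaving out WT 2 took all 3 past the threshold, with Jak1 at -1.51, Stat3 at -0.73 and Stat5b at 0.79. In that fit 6967 of all 13393 genes tested passed, against 3539 with all 6 libraries.

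Of 7 feedback genes, 1 rose and 2 fell. Socs1, a JAK inhibitor induced by cytokines, was at 7.80, 9.62 and 14.2 FPKM in WT and at 27.6, 18.8 and 20.4 FPKM in KO (1.03, limma adjusted p = 0.0463). Its call was lost in 7 of 18 alternatives. Sh2b3 (LNK), an adaptor that restrains cytokine receptors, fell by 1.63 (adjusted p = 0.00853) and Socs2 by 1.21 (adjusted p = 0.0113) in the limma fit, and Socs2 lost its call without KO 2 (adjusted p = 0.0568). After rescaling to TPM neither passed (-0.95 with adjusted p = 0.299 for Sh2b3, -1.25 with adjusted p = 0.112 for Socs2, limma), so 0 of the list were lower. In that fit 3360 of all 13393 genes tested passed, 1081 of them lower. Ptpn6 (SHP-1) did not pass, at -1.31 (95% interval -2.36 to -0.25, limma adjusted p = 0.0736), but did without WT 3 (-1.77, limma adjusted p = 0.0113).

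Of 9 genes listed as cytokine response genes, 0 rose and 6 fell, with a median difference of -1.09. Ccnd2 (cyclin D2) was at 44.0, 15.9 and 46.9 FPKM in WT and at 1.52, 2.26 and 2.13 FPKM in KO (-3.49, limma adjusted p = 0.00243). Osm (oncostatin M) went from 32.1, 74.9 and 14.8 FPKM to 2.41, 2.49 and 2.95 FPKM (-3.24, limma adjusted p = 0.00709). Of the PIM kinases, Pim2 fell by 2.85 (limma adjusted p = 0.00481) and Pim1 by 1.09 (limma adjusted p = 0.0302). After rescaling to TPM, 2 of the 9 were lower and 1 was higher, and 3 were lower without WT 1, KO 1 or KO 2. In those fits 3360, 2620, 2071 and 1934 of all 13393 genes tested passed, against 3539 with all 6 libraries. Pim2 lost its call on rescaling to TPM (limma adjusted p = 0.057). Pim1 lost its call on rescaling to TPM and when any library but WT 2 was left out (limma adjusted p of 0.0728 to 0.144). The fall of this list stood beside the rise of Stat5a, and which cells gave either RNA was not measured.

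The other cytokine receptors were given the same fit for comparison. Of 26 such genes 18 were tested, of which 1 rose and 9 fell, with a median difference of -1.39. Csf2ra and Csf3r are receptors for growth factors of myeloid cells. Csf2ra (GM-CSF receptor) was at 108, 63.1 and 26.9 FPKM in WT and at 1.28, 1.41 and 1.98 FPKM in KO (-4.52, limma adjusted p = 0.00155). Csf3r (G-CSF receptor) was at 124, 65.5 and 19.2 FPKM in WT and at 0.119, 0.370 and 0.929 FPKM in KO (-5.27, limma adjusted p = 0.00237). Il6ra fell by 3.77 (adjusted p = 0.00156) and Il10ra by 2.34 (adjusted p = 0.00244) in the limma fit, and Il10ra lost its call on rescaling to TPM (-1.75, adjusted p = 0.0715). Il12rb1, a chain of the IL-12 and IL-23 receptors, rose by 1.63 (limma adjusted p = 0.0367), a call that was lost in 6 of 18 alternatives.

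**Figure D4:**
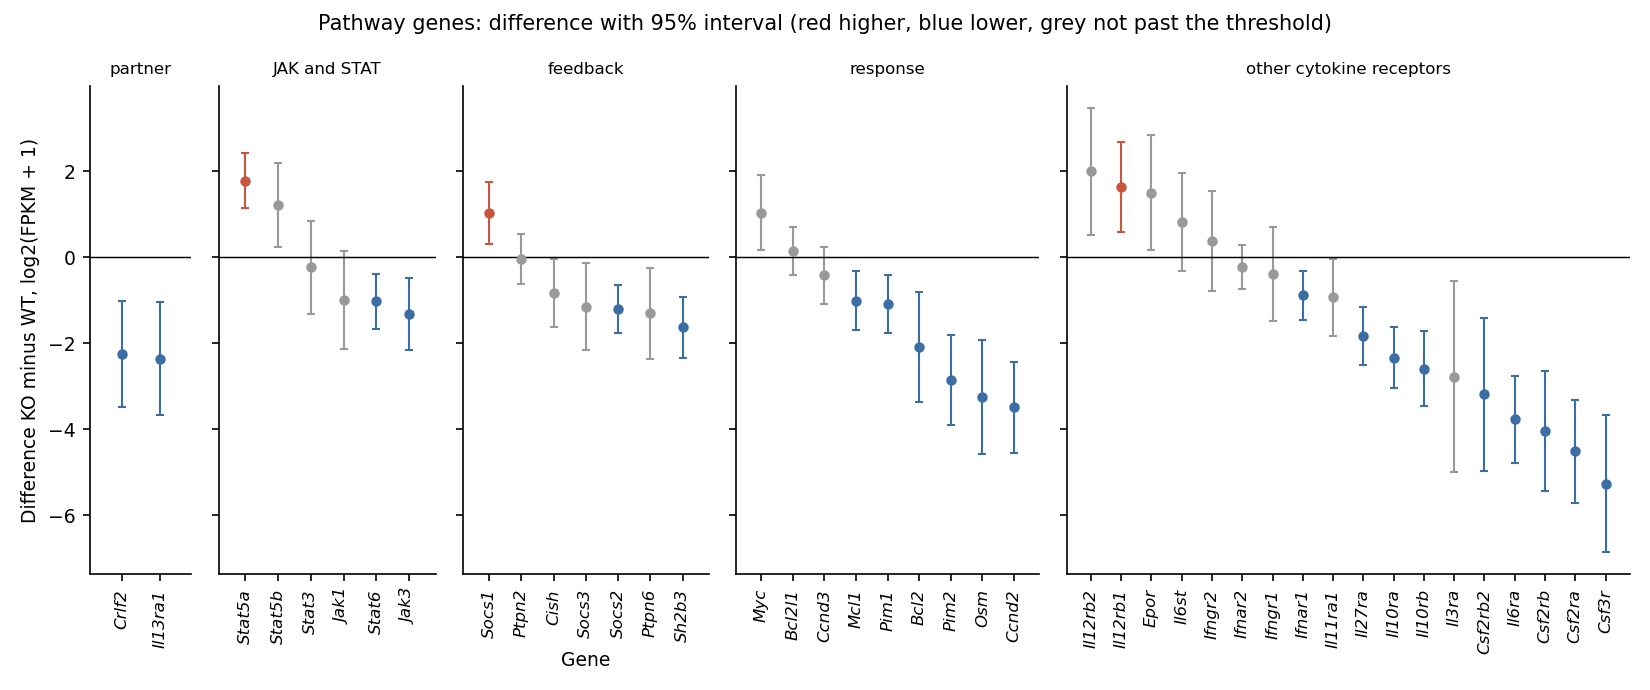
Difference KO minus WT on log2(FPKM + 1) with its 95% interval for the tested partner chains, JAK and STAT genes, feedback genes, response genes and other cytokine receptors (red higher, blue lower, grey not past the threshold). Of the 42 genes drawn, 3 were red (Stat5a, Socs1 and Il12rb1) and 21 were blue, down to -5.27 for Csf3r.

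Of 12 transcription factor genes 11 were tested, of which 2 rose and 3 fell. The number that rose was 5 without WT 2 and 1 without KO 1 or KO 3. In those fits 6967, 2071 and 2021 of all 13393 genes tested passed, against 3539 with all 6 libraries. Tbx21 (T-bet) and Eomes, T-box factors of effector T cells and NK cells that are known to act on Il2rb, were at 36.8 to 53.5 and 15.6 to 35.6 FPKM in WT and at 0.863 to 2.35 and 0.0153 to 0.465 FPKM in KO. The limma difference was -3.97 for Tbx21 (adjusted p = 0.000553) and -4.47 for Eomes (adjusted p = 0.000613). Gfi1, known as a repressor of Il7r, was at 9.37, 5.26 and 7.29 FPKM in WT and at 65.5, 39.1 and 30.5 FPKM in KO (2.43, limma adjusted p = 0.00425). Notch1, a driver of early T-cell development, was at 18.9, 1.26 and 16.9 FPKM in WT and at 211, 139.96 and 169.9 FPKM in KO (4.21, limma adjusted p = 0.0126). All 4 had groups that did not overlap, and Notch1 lost its call without KO 1 (limma adjusted p = 0.0577) or KO 3 (0.0531).

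Markers of cell types that use these receptors moved with the groups. Of 7 markers of immature thymocytes, which are known to carry CD25 at an early stage, 5 rose and 0 fell past the threshold (summed FPKM 467 to 920 in WT and 957 to 1215 in KO). Those that rose were Rag1, Rag2, Dntt, Cd4 and Ptcra, which had no reads in any WT library. Cd8b1 went the other way, at 276, 788 and 293 FPKM in WT and 141, 130 and 114 FPKM in KO (-1.64, limma adjusted p = 0.0512). A marker of this list was lower in 6 of 18 alternatives. Of 9 markers of effector CD8 T and NK cells, 8 fell and 1, Gzma, rose (2061 to 5550 in WT, 588 to 663 in KO). Of the regulatory T-cell markers, whose cells also carry CD25, 2 of 4 tested rose and 1 fell (summed FPKM 55.9 to 86.0 in WT and 109 to 188 in KO), while the defining gene Foxp3 was too low to be tested (0.533 to 1.62 FPKM in WT, 0.404 to 0.446 in KO). All 8 neutrophil markers fell (summed FPKM 6608 to 93615 in WT, 90.9 to 279 in KO), as did 4 of 5 tested monocyte and macrophage markers (589 to 4987 in WT, 11.1 to 27.3 in KO). Between the groups Il2ra changed in the direction of the first list, Il2rb of the effector list, and Il4ra of the effector and myeloid lists. This likeness is of direction only, as for any gene that rose or fell. Among the WT libraries, WT 2 had the highest effector sum (5550) and neutrophil sum (93615). Ccl5, a gene of 960 bases, gave 3977 FPKM of that effector sum. Il2rb (167 FPKM) and Il4ra (56.3 FPKM) had their lowest WT value in WT 2. So did the effector markers Klrd1, Klrk1, Prf1 and Fasl, while Nkg7, Gzma, Ccl5 and Cst7 had their highest and Gzmb lay between. The part of any of these cells in the receptor results was not tested.

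In WT 2, markers of further lineages stood out. B-cell markers summed to 1074 FPKM there against 11.3 and 17.2 in WT 1 and WT 3 and 1.10 to 1.39 in KO (0 of 3 tested passed), and erythroid markers to 58621 FPKM against 118 and 467 in WT and 9.26 to 105 in KO (0 of 4 tested passed). Of the mast cell and basophil markers 1 of 3 tested fell, and of the megakaryocyte and platelet markers 0 of 2 passed (59.3 in WT 2, 4.96 and 5.67 in the other WT libraries, 0.264 to 0.321 in KO). Without WT 2, 3 B-cell, 2 erythroid, 2 megakaryocyte and platelet and 3 mast cell and basophil markers were lower in KO, and the last count was 0 without WT 1 or any KO library. Erythroid markers that fell also numbered 2 without WT 1, and 1 megakaryocyte and platelet marker fell without WT 3. Over all 13393 genes tested, 2620 passed without WT 1, 3150 without WT 3 and 1934 to 2071 without 1 KO library. Stromal and endothelial markers were at most 1.05 FPKM in sum, and none was tested. In the fit without WT 2, all 8 receptor genes passed, 2 higher and 6 lower. Calls were more frequent in that fit, with 6967 of all 13393 genes tested past the threshold, against 3539 with all 6 libraries.

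Of the 8 genes, 4 lie in neighbouring pairs, which allowed a comparison within a locus. Il15ra starts 12096 bases after the end of Il2ra, and only Il2ra of the pair passed. Gm37881, an unconfirmed transcript model inside the Il2ra gene on the same strand, rose by 4.65 (mean 0.881 ± 0.554 FPKM in WT, 45.5 ± 9.30 in KO, SD, n = 3 each, limma adjusted p = 0.000315), and its reads may be shared with Il2ra. The other neighbours within 100000 bases that were tested, Pfkfb3, Rbm17, Fbxo18 and Ankrd16, did not pass, with differences of -0.81 to 0.87. Il21r lies 23954 bases after Il4ra, and both fell, Il4ra by more. On either side of this pair Kdm8 rose by 1.03 (limma adjusted p = 0.0213) and Gtf3c1 by 1.02 (limma adjusted p = 0.0474), and Nsmce1 did not pass (-0.74, limma adjusted p = 0.416). None of the tested genes within the same distance of Il7r (2), Il9r (5) and Il2rg (4) passed, and beside Il2rb 2 of 5, Kctd17 and C1qtnf6, fell. These genes were chosen by distance after the receptor values were known.

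**Figure D5:**
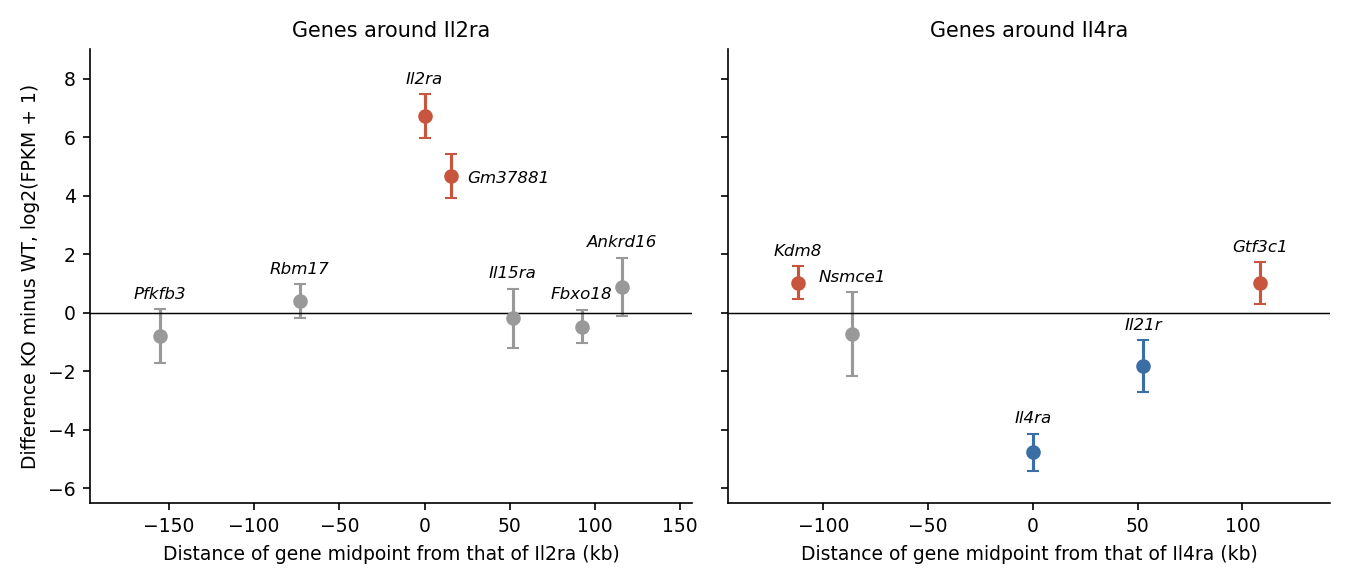
Difference KO minus WT on log2(FPKM + 1) with its 95% interval for Il2ra and Il4ra and their tested neighbours, against the distance of gene midpoints in kilobases (red higher, blue lower, grey not past the threshold). Il2ra (6.71) stands above Il15ra (-0.20) beside it, and Il4ra (-4.78) and Il21r (-1.82) lie between neighbours at -0.74 to 1.03.

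The genes whose profiles over the 6 libraries were nearest to each receptor gene were found by the root mean square difference of centred log2(FPKM + 1). Notch3, a receptor of early T-cell development, was among the 3 nearest to Il2ra, at 0.0483, 0.116 and 0.0321 FPKM in WT and 162, 116 and 109 FPKM in KO (distance 0.357), with Gm525 (0.260) and Endou (0.383). Il9r was nearest to Gm25057 (0.077), Chrna9 (0.114) and Arpp21 (0.120). For Il2rb they were Neurl3 (0.350), S1pr1 (0.379), the receptor for lymphocyte exit from tissues, and Fasl (0.421), the ligand of the death receptor Fas. Il4ra was nearest to Samd3 (0.112), Gm2682 (0.192) and Eif2s3y (0.207), the Y-linked gene nearly absent in KO. Il7r was nearest to Plekha1 (0.168), Prkar2a (0.181) and Smarca2 (0.196), and Il21r to Pias3 (0.133), Cables2 (0.136) and E330009J07Rik (0.137). Il2rg followed Tnfrsf14 (0.087), Slc50a1 (0.106) and Gnal (0.113), and Il15ra followed Man1a (0.071) and Slfn8 (0.076). With 6 libraries in 2 groups, these likenesses describe the group difference and the place of WT 2, and with so many genes some profiles lie close in any table.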

How the data were processed

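BM RNA of 3 WT and 3 KO libraries was sequenced after Trizol extraction and NEBNext library preparation. The submitters' processing notes name HISAT2 2.0.5 and featureCounts 1.5.0-p3, with GRCm38 and mm10 as builds; their settings are not given in the sources used here. The deposited FPKM file gives a value per gene and library, made by the authors from read counts, gene length and library size. Multiplied by gene length, 100% of values above 0 came out as whole reads (tolerance 0.01), so reads were recovered. The library size the authors divided by was 0.645 (WT 2) to 1.21 (KO 2) times the recovered total, so a scaling factor is part of the deposited FPKM. Intervals and floors (3 reads) cover counting error only.

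The study tested read counts with a model for counts. Here log2(FPKM + 1) was compared by limma 3.58.1 (lmFit, eBayes with trend, two-sided) in R 4.3.3 for genes that reached an FPKM of 1 in 3 or more of the 6 libraries, with Benjamini-Hochberg adjustment over 13393 genes and a threshold of 0.05. Ratios of FPKM + 1 within libraries were compared by exact permutation tests. Tables were handled with data.table (1.17.8), and the rest was run in Python 3.11.15, pandas 2.3.3, NumPy 2.4.6 and Matplotlib 3.10.9. The fit was also run on simulated data with independent libraries, which does not show how it handles a library like WT 2. The receptor genes and all lists were chosen with earlier results of these data known. Named are the receptor genes, all ligands, partner chains, kinases and STATs, Phf6, up to 4 members of each other pathway list with the smallest p-values plus any past the threshold in the opposite direction, and the 3 genes nearest in profile to each receptor gene (some genes that these rules select are not reported here); single markers and neighbours in the genome were named after their values were seen. Alternatives were other pseudocounts, filters, scalings and variance models, array weights, a replicate block, voom on recovered reads, each library left out and, chosen after seeing the data, removal of the trend on gene length. Promoter windows come from RefSeq (GRCm38.p6), and gene positions are those of the deposited table, which were the same for the 8 genes in a GRCm38 annotation.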

Additional observations from a re-analysis of the deposited data

How the results depend on the processing

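Il2ra, Il9r, Il2rb and Il4ra kept their direction and stayed past the threshold under all 18 alternatives. The count of receptor genes past the threshold was 4 after rescaling to TPM (2 lower) and otherwise 5 to 8, and leaving out 1 library gave 5 to 8 in all and 3 to 6 lower, with 3 lower without KO 1, KO 2 or KO 3 and 6 without WT 2. Il2rg lost its call in 6 alternatives, Il21r in 4 and Il7r in 1, rescaling to TPM (adjusted p of 0.0627 for Il2rg, 0.295 for Il21r and 0.123 for Il7r); the cause was not tested. Over all 13393 genes tested, 3360 passed after rescaling to TPM, 1081 of them lower. Without KO 1, KO 2 or KO 3 the lower calls over all genes numbered 1082, 996 and 1059, and without WT 2 they numbered 3383. Rescaling to TPM moved the part of the calls lying above 0 from 49.6% to 67.8%. It also moved the median difference of all genes from 0.09 to 0.86. The difference of Il2rg, without that median taken off, was -1.63 in the main fit and -0.81 after rescaling to TPM. Quantile normalization (0.147), a pseudocount of 0.1 (0.146) and voom (0.139) moved the median by less than 0.1. The sign of 3 genes that did not pass changed: Il15ra was at 0.46 after rescaling to TPM and ranged from -0.63 (without WT 2) to 0.069 (without WT 3) with 1 library left out, Stat3 at 0.57 after rescaling to TPM and from -0.73 (without WT 2) to 0.083 (without WT 1), and Phf6 at 0.69 after rescaling to TPM and from -0.37 (without WT 2) to 0.0999 (without WT 3). The number of all genes past the threshold, 3539, became 1837 for a mean FPKM of at least 5 (8296 genes tested), 8461 with array weights and 1934 to 6967 with 1 library left out, the highest without WT 2 and the lowest without KO 2. Replicates with the same number correlated at 0.095, 0.105 and -0.153, so the numbers do not pair the libraries. With a replicate block 2676 genes and 6 receptor genes passed, Il2rg being lost at adjusted p = 0.0633. Removing the trend on gene length, an alternative chosen after seeing the data, left 3831 genes and 7 receptor genes past the threshold. Il2rg was at -1.53 in that fit. With 3 libraries a group, depth did not limit the 8 receptor genes, whose lowest count was 30 reads, but it did limit the ligands.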
